A study of Caenorhabditis elegans with 15 samples.

Results

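Sensory cilium genes of *Caenorhabditis elegans* were taken by name from a table of whole-worm read counts. The rule took every gene named che, dyf, osm, bbs, ift, ifta, mks or nphp with a number, provided that 10 or more reads were counted on it in 3 or more libraries. It left 42 members of the 50 genes with such names, in a table of 46756 genes of which 31569 had counts. The 15 libraries came from whole young adult worms of 5 strains, 3 libraries labelled as biological replicates per strain, each from about 20000 worms grown at 20 °C. The strains were the wild type N2, 2 mutants of the neurexin gene with the deletion alleles ok1649 and tm1961, written *nrx-1* (ok1649) and *nrx-1* (tm1961), and 2 mutants of the neuroligin gene with the deletion alleles ok259 and tm474, written in the same way. Values for the 4 mutants are given in this order unless stated. Neurexin and neuroligin are adhesion proteins of the synapse. N2 and the ok alleles came from one stock centre, the Caenorhabditis Genetics Center, and the tm alleles from the National Bioresource Project, so allele and source cannot be told apart. The authors name a potential effect of background as a limit, since the tm1961, ok259 and tm474 strains differed in origin and had no backcross before sequencing. In these strains mutation and background cannot be told apart. The labels name no further allele or agent. All 4 comparisons with the wild type share its 3 libraries.

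In the adult worm, cilia are found at the dendrite endings of certain sensory neurons, which detect odours, salts, touch, pheromones and osmotic strength through them. A cilium is built and kept up by intraflagellar transport (IFT), in which kinesin motors carry trains of IFT-B and IFT-A proteins to the tip and a dynein motor returns them. The BBSome is an adaptor complex that rides on these trains, and the transition zone is the gate at the cilium base that decides which proteins enter. Many of the genes were found in screens for worms that failed in chemotaxis (che), took up no dye into their sensory neurons (dyf) or ignored high osmotic strength (osm), and others by homology to human genes of Bardet-Biedl syndrome (bbs), Meckel syndrome (mks) and nephronophthisis (nphp).

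By role, 12 members encode IFT-B proteins, 3 IFT-A proteins, 2 the motors, 7 BBSome subunits, 1 a kinase and 7 proteins of the transition zone or cilium base. The remaining 10 were named for a sensory defect and have other roles. The name rule and the label "sensory cilium" did not coincide for all of these 10. *osm-7*, *osm-8* and *osm-11* act in the epidermis in the response to osmotic stress, with *osm-11* encoding a secreted Notch co-ligand, and *che-14* encodes a Dispatched-like protein of epithelial cells. These 4 genes held between 53.5% and 87.8% of the scaled counts of all members in a library, and *osm-11* alone between 17.9% and 84.2%. A summed level over the members therefore followed *osm-11*, and each member is described by its own values here. The members lie on all 6 chromosomes, with 8 on I, 6 on II, 7 on III, 4 on IV, 8 on V and 9 on X. Of the 8 genes below the count rule, *che-6* never reached 10 reads, and *dyf-18*, *che-1*, *dyf-19* and *mks-2* reached 10 in 2 libraries. *ift-20*, *ifta-2* and *mks-5* did so in 1 library each. Just inside the rule, *dyf-11* and *nphp-1* had 10 or more reads in 3 libraries, with at most 12 and 14 reads.

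Total counts ran from 10152578 to 26211067, both in *nlg-1* (tm474), in replicates 1 and 3. The members were thinly covered, with 22 of them at a median below 30 reads per library and 5 at a median of 100 or more (*che-10*, *che-14*, *dyf-7*, *osm-7* and *osm-11*). The share of counts on noncoding RNA genes was 4.39% to 5.96% in N2 and 15.9% to 26.8% in *nrx-1* (tm1961). Replicate 1 of *nrx-1* (ok1649) and of *nlg-1* (ok259) held 3.78% and 3.26% noncoding counts, against 21.7% to 30.9% in the other replicates of these strains. In *nlg-1* (tm474) the shares were 7.55%, 20.7% and 5.24% for replicates 1, 2 and 3. Replicate 1 of these 3 strains also had the 3 lowest scaling factors of the trimmed mean of M values (TMM), at 0.616 to 0.683, where the other 12 libraries had 0.949 to 1.29. By scaling factor these 3 libraries stand apart from the replicates they are labelled with, and results are therefore also given without them where that alters a count. Over all genes this does not hold for *nlg-1* (tm474). Its replicates 2 and 3 differed most from each other, at a chi-square per degree of freedom of 577. Replicate 1 against replicates 2 and 3 gave 341 and 293.

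The mutated genes were still counted in every library. *nrx-1* stood at 11.8, 10.5 and 9.71 CPM (counts scaled to 1000000 per library after TMM over 15 libraries) in N2, at 7.95, 8.81 and 6.59 CPM with the allele ok1649 and at 7.90, 4.02 and 4.74 CPM with tm1961. *nlg-1* stood at 18.0, 14.9 and 11.1 CPM in N2, at 10.2, 8.15 and 8.87 CPM with ok259 and at 1.92, 1.35 and 6.76 CPM with tm474. In each mutant all libraries of its own mutated gene were below those of N2. The mutated genes also had lower means than in N2 in strains that do not carry their mutation, with libraries that overlapped N2 in each. *nlg-1* stood at 12, 5.12 and 2.79 CPM with the neurexin allele ok1649 and at 17.0, 3.52 and 2.92 CPM with tm1961, and *nrx-1* at 7.55, 10.3 and 8.82 CPM with the neuroligin allele ok259 and at 6.08, 8.48 and 11.6 CPM with tm474. The log2 fold change of *nlg-1* against N2 was -1.18 and -0.87 in the neurexin mutants, beside -0.95 and -2.18 in its own, and that of *nrx-1* was -0.49 and -0.33 in the neuroligin mutants, beside -0.53 and -0.90 in its own. The adjusted p in edgeR was 0.516 and 0.130 for *nrx-1* in its own mutants and 0.333 and 0.588 for *nlg-1*. It was 0.339 and 0.384 for *nlg-1* in the neurexin mutants and 0.571 and 0.922 for *nrx-1* in the neuroligin mutants. The paper describes ok259 as a full knockout, and ok1649 and tm1961 as deletions that affect the long alpha isoforms of *nrx-1*. Counts per gene do not separate isoforms, or a deleted part from the rest. Where the reads of the mutants lie was not tested, also for ok259, so these levels do not check the labels.

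The first question was how high the cilium genes stand in wild-type worms, compared per kilobase of exon because the genes differ in length. The median member stood at 0.436 CPM per kb over the N2 libraries, where the median of 17326 genes of the test over 5 strains was 7.34 CPM per kb, and 40 of the 42 members were below that median. *osm-11* stood highest of the members at 187 ± 23.9 CPM per kb (SD, n = 3), followed by *osm-7* at 21.1 ± 11 and *osm-8* at 4.59 ± 3.95. The order of *osm-8*, *che-14* (3.56 ± 2.33), *che-10* (3.37 ± 0.503) and *dyf-7* (3.31 ± 1.27) was within the spread of the replicates. *che-10* encodes the rootlet protein rootletin, and *dyf-7* a zona pellucida protein that anchors the dendrite tip during its growth.

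Within the IFT-B complex the levels in N2 spanned more than 10-fold. *dyf-3*, the CLUAP1 homologue, was highest at 2.42 ± 0.859 CPM per kb, then *osm-1* (IFT172 homologue) at 1.03 ± 0.0192, *che-13* (IFT57 homologue) at 0.806 ± 0.507 and *dyf-6* (IFT46 homologue) at 0.601 ± 0.111. The other IFT-B members were *dyf-1*, *osm-5*, *che-2*, *ift-81*, *osm-6*, *ift-74*, *dyf-11* and *dyf-13*, the homologues of IFT70, IFT88, IFT80, IFT81, IFT52, IFT74, IFT54 and IFT56, and ran from 0.509 down to 0.151 CPM per kb. Of the IFT-A members, *dyf-2* (IFT144 homologue) stood at 0.962 ± 0.200, *ifta-1* (IFT121 homologue) at 0.309 ± 0.0243 and *che-11* (IFT140 homologue) at 0.219 ± 0.0998 CPM per kb. The kinesin motor *osm-3*, which builds the distal segment of the cilium, stood at 1.08 ± 0.138, and *che-3*, the heavy chain of the returning dynein, at 0.344 ± 0.0381 CPM per kb. The N2 values of *osm-3* and *che-3* did not overlap per kb, nor did those of *dyf-3* and *osm-1*.

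Among BBSome subunits *bbs-5* was highest in N2, at 1.28 ± 0.0381 CPM per kb. *bbs-8*, *bbs-1*, *osm-12* (the BBS7 homologue), *bbs-2*, *bbs-9* and *bbs-4* ran from 0.465 to 0.113 CPM per kb. The MAK-like kinase *dyf-5*, which limits cilium length, stood at 0.481 ± 0.105 CPM per kb. At the transition zone and base, below *che-10*, *nphp-2* (inversin homologue) and *nphp-4* stood at 0.585 ± 0.300 and 0.407 ± 0.137, and *mks-1*, *nphp-1*, *mks-3* (meckelin homologue) and *mks-6* (CC2D2A homologue) at 0.254, 0.111, 0.0806 and 0.0635 CPM per kb. The last pair were the lowest of all members. Of the other genes named for a sensory defect, *dyf-17* stood at 2.82 ± 0.248, *osm-10*, a cytosolic protein of osmosensory neurons, at 1.30 ± 0.439 and *osm-9*, a TRPV channel subunit of the ciliary membrane, at 1.12 ± 0.616. The innexin *che-7* stood at 0.600 ± 0.122 and *che-12*, a tubulin-binding TOG-domain protein of cilia, at 0.383 ± 0.120 CPM per kb.

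**Figure D1:**
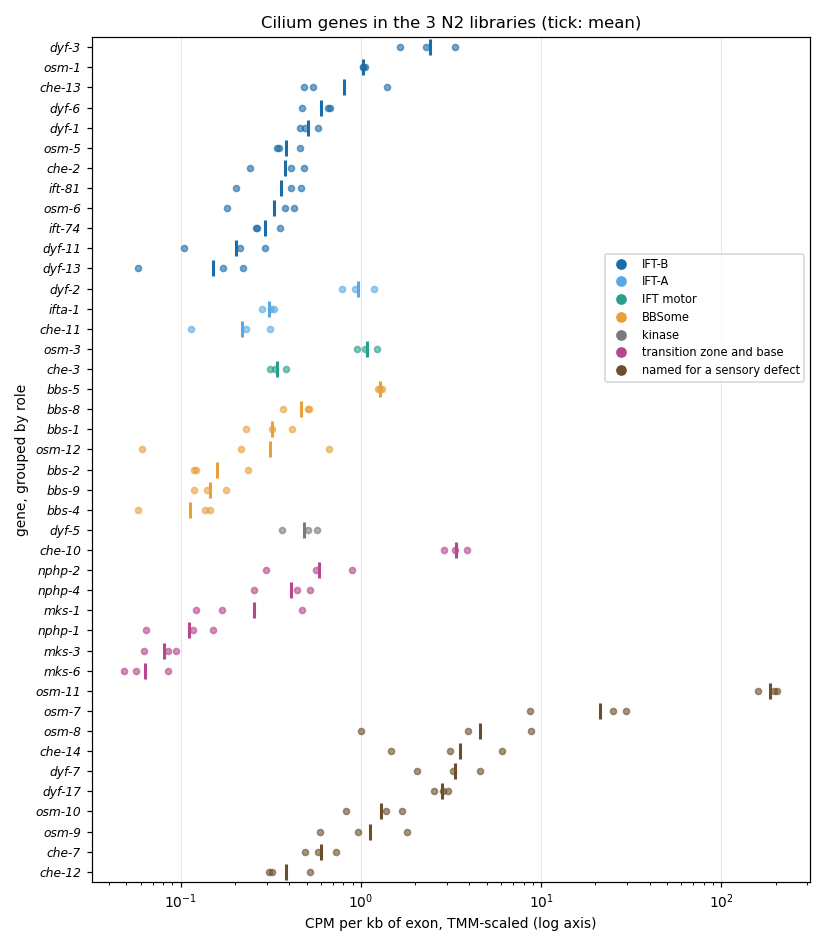
Level of each of the 42 cilium genes in N2, in CPM per kb of exon on a log axis. Points are the 3 libraries, ticks their mean and colours the roles. *osm-11*, at a mean of 187 CPM per kb, stands apart from all other members, and most core transport and gate genes lie below 1 CPM per kb.

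Each mutant strain was then compared with N2, to ask whether mutation of a synaptic adhesion gene goes with other levels of the cilium genes. In edgeR's quasi-likelihood test a gene was called where the adjusted p was below 0.05 and the log2 fold change passed 1 in size. No member was called in any of the 4 comparisons. In *nrx-1* (ok1649) 0 of 33 members tested were called, beside 0.0251% of all genes tested. The same count was 0 of 38 members in *nrx-1* (tm1961), and 0 of 36 and 0 of 34 in the neuroligin mutants, beside 0% of all genes in each. These tests called hardly any gene of the genome, so a count of 0 says little about the cilium genes themselves. In whole worms, fewer ciliated neurons and less RNA per neuron cannot be told apart.

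At an unadjusted p below 0.05 in edgeR there were 2 of 33 members in *nrx-1* (ok1649), beside 18.1% of all genes. There were 7 of 38 in *nrx-1* (tm1961), beside 34.2%. In the neuroligin mutants there were 4 of 36 with ok259, beside 14.2%, and 1 of 34 with tm474, beside 8.41%. The share of members was below that of all genes in each strain, by few members in the neuroligin mutants. The median standard error over all genes was 0.59, 0.44, 0.57 and 0.57 on the log2 scale, and that of the members was larger in each strain. The lower share is therefore not read as a smaller effect on the members. DESeq2 called 0 of 32 members in *nrx-1* (ok1649), beside 4.13% of all genes, and 3 of 41 in *nrx-1* (tm1961), beside 17.5%. With the neuroligin allele ok259 it called 0 of 40, beside 3.65%, and with tm474 0 of 42, beside 0.312%.

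The members as a list lay close to 0 against N2. Their median log2 fold change was 0.01 and -0.04 in the neurexin mutants and -0.05 and 0.01 in the neuroligin mutants, where the median of all genes tested was 0.16, 0.11, 0.03 and 0.08. Near 0 in the middle, the members were spread widely to both sides, from -2.96 to 1.94 in *nrx-1* (tm1961), where the range was widest, and over -1.91 to 1.49 in *nlg-1* (tm474). Positive and negative signs were almost even, at 17 and 16 members, 18 and 20, 17 and 19, and 17 and 17 for the 4 mutants. The median standard error of a member was 0.63, 0.49, 0.62 and 0.63 on the log2 scale in the same order, so a change of 2-fold was within about 2 standard errors. Scaling by library totals in place of TMM moved the median of all genes to 0.14, 0.25, 0.18 and -0.07 and that of the members to 0.12, 0.14, 0.24 and -0.10. Relative to all genes, the members' median in *nlg-1* (ok259) was lower under TMM and higher under library totals. With the share of counts on 3 abundant noncoding genes as a covariate over 15 libraries, the members' median was -0.41, -0.43, -0.41 and 0.01 where that of all genes was 0.20, 0.21, 0.19 and 0.24, and 29, 31, 28 and 20 of 40 members were negative. That share was 2.57% to 3.40% in N2 and 11.6% to 19.4% in *nrx-1* (tm1961), without overlap. Strain and covariate can hardly be told apart there. The fitted slope draws on differences between replicates, which were largest in the strains with ok1649 and ok259.

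By role, the larger groups held values of both signs in nearly every mutant, and no member of any role was called. The BBSome subunits had a median log2 fold change of 1.02 over 3 tested (all positive), 0.39 over 6, 0.10 over 5 and -0.26 over 5 in the 4 mutants. IFT-B members had medians of -0.40, -0.01, 0.05 and -0.02 over 10, 11, 10 and 10 tested, in the same order. The motors *osm-3* and *che-3* had mean values of -0.51, -0.64, -0.39 and -0.36, both negative in each of the 4 mutants, and neither had an unadjusted p below 0.05 in edgeR. Members of the transition zone and base had medians of -0.22, 0.30, 0.29 and 0.05 over 4, 5, 5 and 3 tested. With tm1961 these included *mks-3* and with ok259 *mks-6*, which passed the filter only through the mutant libraries. The same holds with tm1961 for *bbs-4* of the BBSome and *dyf-13* of IFT-B. *bbs-2*, with 6, 12 and 8 reads in N2, also needed mutant libraries to pass. The filter thus favoured positive values in these medians in advance. Genes named for a sensory defect had medians of -0.09, -0.08, -0.27 and 0.08 over 10 tested in each strain.

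**Figure D2:**
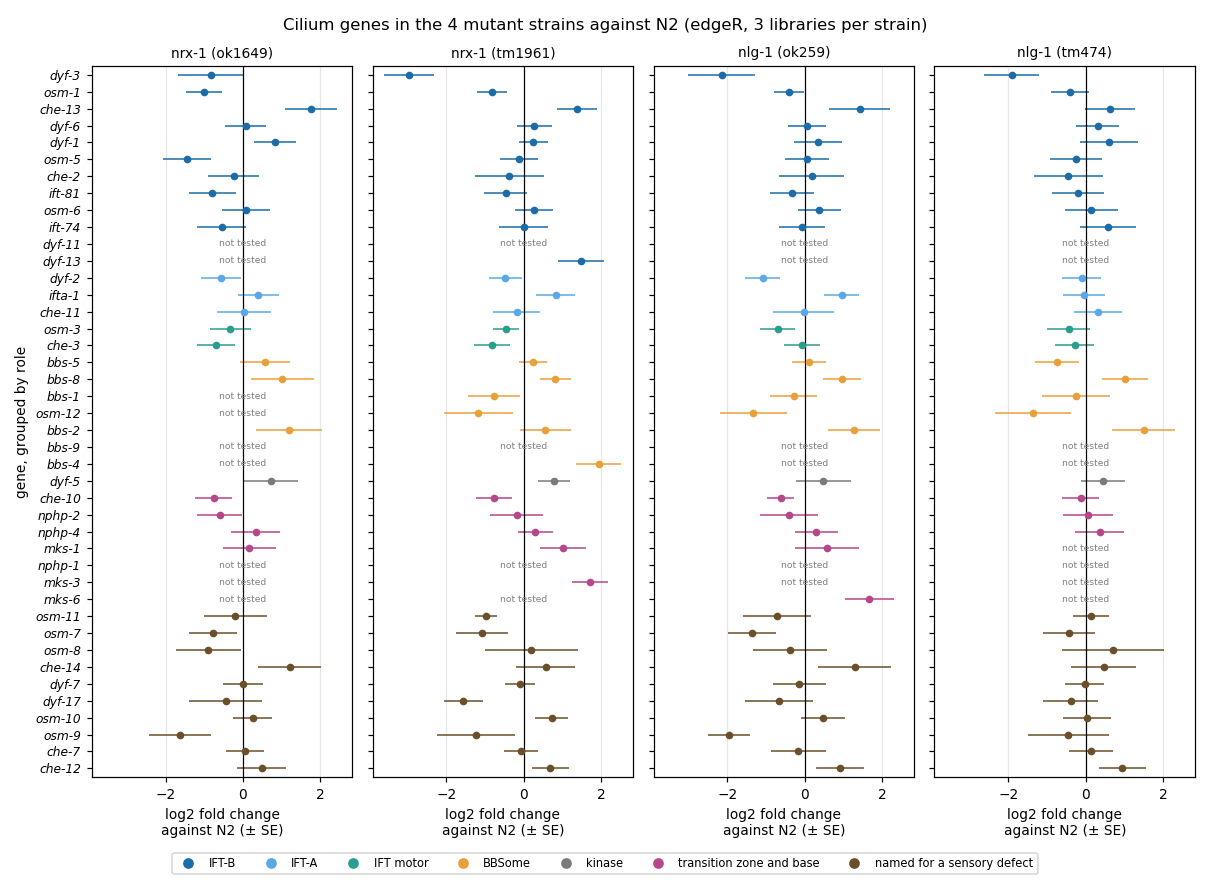
Log2 fold change of each member against N2 in edgeR, with its standard error as a bar, in the 4 mutant strains (3 libraries per strain, grey text where too few reads were counted for the test). Members of most roles lie on both sides of 0, and *dyf-3* has the most negative value in every mutant but *nrx-1* (ok1649).

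*dyf-3* gave the smallest p of any member. It lies on chromosome IV at 3396581 to 3399231 in WBcel235, on the minus strand, and is protein coding. In N2 it stood at 2.29, 3.19 and 4.66 CPM, and in *nrx-1* (tm1961) at 0.790, 0.335 and 0.144 CPM. All libraries of *nrx-1* (tm1961) were thus below every N2 library. The log2 fold change was -2.96 ± 0.64 (SE), with an adjusted p of 0.0745 in edgeR. DESeq2 gave -3.01 with an adjusted p of 0.00127, and a fit in edgeR blocked on replicate number gave -3.01 with an adjusted p of 0.0106. Over 16 alternatives the log2 fold change ran from -3.72 to -1.01 and the adjusted p from 0.00127 to 0.470.

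In the other strains *dyf-3* divided by replicate. It stood at 4.67 CPM in replicate 1 of *nrx-1* (ok1649) and at 0.596 and 0.593 in replicates 2 and 3. With the neuroligin allele ok259 it stood at 2.40, 0.320 and 0.251 CPM, and with tm474 at 2.08, 0.314 and 0.840 CPM. Replicate 1 was level with the highest N2 library in *nrx-1* (ok1649), inside the N2 range with ok259 and just below it with tm474, while the other replicates were far below it. The log2 fold changes in edgeR were -0.82 ± 0.85 (adjusted p = 0.671), -2.15 ± 0.86 (adjusted p = 0.338) and -1.91 ± 0.70 (adjusted p = 0.588). Of these, that of *nrx-1* (ok1649) was 0.06 with the share of abundant noncoding genes as a covariate.

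*nrx-1* (tm1961) had the most members at a low p. *mks-3*, whose product meckelin spans the membrane of the transition zone, on chromosome II at 7580144 to 7583655, stood at 0.183, 0.274 and 0.249 CPM in N2 and at 0.692, 0.670 and 0.910 CPM in *nrx-1* (tm1961). Every mutant library was above every N2 library, at a log2 fold change of 1.70 ± 0.46 and an adjusted p of 0.0762 in edgeR. With the share of abundant noncoding genes as a covariate the value was 0.23, and over 15 alternatives the adjusted p ran up to 0.826. *bbs-4* (1.94 ± 0.58) and *dyf-13* (1.47 ± 0.59) had positive log2 fold changes without overlap of the libraries, at adjusted p of 0.0832 and 0.129. *mks-3*, *bbs-4* and *dyf-13* had fewer than 10 reads in every N2 library. They entered this test only through the mutant libraries, so the filter favoured a positive value without overlap in advance. *dyf-17* stood at 3.39, 3.61 and 3.02 CPM in N2 and at 1.88, 0.905 and 0.527 CPM in *nrx-1* (tm1961), a log2 fold change of -1.56 ± 0.51 with an adjusted p of 0.0913 in edgeR. In this strain 6 of 38 members lay above all N2 libraries, beside 18.0% of all genes, and 5 lay below, beside 21.1%. The members above were *bbs-4*, *bbs-8*, *che-13*, *dyf-13*, *dyf-5* and *mks-3*, and those below *dyf-3*, *dyf-17*, *osm-1*, *osm-3* and *osm-11*.

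Libraries of *nrx-1* (tm1961) and N2 with the same replicate number deviated together from their group means, and a fit that blocked on replicate number called 7 of 38 members, beside 31.5% of all genes. Called higher were *bbs-4* (1.94, adjusted p = 0.0428), *mks-3* (1.70, adjusted p = 0.0472) and *che-13* (1.49, adjusted p = 0.0253) in edgeR. Called lower were *dyf-3*, *dyf-17* (-1.70, adjusted p = 0.0196), *osm-9* (-1.93, adjusted p = 0.0262) and *osm-7* (-1.20, adjusted p = 0.0271). With the share of abundant noncoding genes as a covariate in place of the block, the log2 fold change was 0.23 for *mks-3*, 0.039 for *che-13*, -0.15 for *osm-9* and -1.01 for *dyf-3*. DESeq2 called *dyf-3*, *dyf-17* (-1.60, adjusted p = 0.0390) and *osm-11* (-1.02, adjusted p = 0.0316). The members called were thus a mixture of roles in both directions. Their share was below that of all genes under both tools, which is not read as a smaller effect on them. Without replicate 1 of *nrx-1* (tm1961), edgeR called 11 of 39 members, beside 36.5% of all genes, with 3 higher (*bbs-4*, *mks-3* and *mks-6*) and 8 lower (*che-3*, *che-10*, *dyf-3*, *dyf-17*, *osm-1*, *osm-7*, *osm-9* and *osm-11*).

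*osm-11*, the member with the most reads, showed the replicate pattern at high depth. It lies on chromosome X at 17420211 to 17421582 and stood at 189, 232 and 242 CPM in N2 and at 128, 111 and 87.6 CPM in *nrx-1* (tm1961), without overlap. The log2 fold change in that strain was -0.98 ± 0.29 with an adjusted p of 0.0823 in edgeR, and 0.89 with the share of abundant noncoding genes as a covariate. In *nrx-1* (ok1649) it stood at 437, 78.6 and 70.3 CPM, with the neuroligin allele ok259 at 425, 37.6 and 49.7 CPM and with tm474 at 478, 125 and 222 CPM. Replicate 1 of each of these strains was above every N2 library, and replicates 2 and 3 of the strains with ok1649 and ok259 were below every N2 library. The fitted log2 fold changes were -0.19 ± 0.82, -0.73 ± 0.88 and 0.14 ± 0.46, with adjusted p in edgeR of 0.950, 0.733 and 0.981. The sign in these 3 strains differed between settings: with the covariate it was positive for ok1649 and ok259, and with library totals it was negative for tm474.

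In *nrx-1* (ok1649) the 2 members with the smallest p were IFT-B genes with opposite signs. *che-13*, on chromosome I at 10506998 to 10515586, stood at 0.823, 0.730 and 2.10 CPM in N2 and at 1.68, 7.56 and 4.33 CPM in *nrx-1* (ok1649). Replicate 1 lay inside the N2 range and the other replicates above it, and the log2 fold change was 1.76 ± 0.67 with an adjusted p of 0.236 in edgeR. With the covariate it was 0.75, and in *nlg-1* (ok259) the value of 1.41 ± 0.80 became 0.0046. *osm-5*, on chromosome X at 2984263 to 2991478, stood at 1.19, 0.913 and 0.890 CPM in N2 and at 0.146, 0.596 and 0.415 CPM in the mutant. All 3 mutant libraries were below those of N2, at -1.44 ± 0.62 and an adjusted p of 0.267 in edgeR. In the other mutants *che-13* stood at 3.56, 2.21 and 3.54 CPM (tm1961), at 0.944, 4.58 and 5.77 CPM (ok259) and at 1.44, 2.29 and 2.04 CPM (tm474), above N2 throughout only with tm1961. *osm-5* stood at 1.38, 0.503 and 0.814 CPM, at 0.581, 1.78 and 1.20 CPM and at 0.320, 1.26 and 0.840 CPM in the same strains, each of which overlapped N2. No member lay above all N2 libraries in this strain, beside 15.9% of all genes, and 3 of 33 lay below (*che-10*, *osm-1* and *osm-5*), beside 7.41%.

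The count in *nrx-1* (ok1649) rested on replicate 1. Without it, edgeR called 14 of 39 members, beside 45.8% of all genes. Higher were *bbs-2*, *bbs-8*, *che-13*, *dyf-1*, *mks-3* and *mks-6*, from 1.12 for *dyf-1* to 2.63 for *mks-6*. Lower were *bbs-1*, *che-10*, *dyf-2*, *dyf-3*, *dyf-17*, *osm-1*, *osm-9* and *osm-11*, from -1.11 for *dyf-2* to -2.93 for *osm-9*. Adjusted p in edgeR ran from 0.00433 for *dyf-17* to 0.0423 for *dyf-2*. The 2 libraries that remain are those with noncoding shares of 21.7% and 25.8%, and the part of that share in these calls was not tested.

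In *nlg-1* (ok259) the smallest p belonged to *osm-9*, on chromosome IV at 3551090 to 3557431. It stood at 5.17, 2.78 and 1.71 CPM in N2 and at 1.02, 1.05 and 0.852 CPM in *nlg-1* (ok259). The 3 mutant libraries were close together, also replicate 1, and all were below N2, at a log2 fold change of -1.96 ± 0.55 and an adjusted p of 0.260 in edgeR. Over 16 alternatives the log2 fold change ran from -2.18 to -0.49 and the adjusted p from 0.0302 to 0.869. Elsewhere *osm-9* was scattered, at 2.26, 0.655 and 0.297 CPM with ok1649, at 3.46, 0.335 and 0.239 CPM with tm1961 and at 0.160, 0.673 and 6.16 CPM with tm474. Its highest and lowest values over all 15 libraries were thus both in *nlg-1* (tm474).

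*mks-6*, on chromosome I at 7160936 to 7166523, stood at 0.183, 0.319 and 0.213 CPM in N2 and at 0.871, 0.503 and 1.35 CPM in *nlg-1* (ok259). The groups did not overlap, and the log2 fold change was 1.67 ± 0.62 with an adjusted p of 0.322 in edgeR. *mks-6* had 4, 7 and 6 reads in N2 and 12, 11 and 27 in *nlg-1* (ok259). It entered this test only through the mutant libraries, so the filter favoured a positive value in advance. The gene was at 4 to 59 reads per library and was too thinly covered for the test of the other mutants against N2, where it stood at 0.292, 1.49 and 1.96 CPM (ok1649), at 0.296, 0.938 and 1.29 CPM (tm1961) and at 1.12, 2.65 and 0.400 CPM (tm474). *mks-3*, which passed the filter against N2 only with tm1961, stood in the others at 0.219, 0.834 and 1.19 CPM (ok1649), at 0.218, 0.824 and 1.35 CPM (ok259) and at 0.640, 1.26 and 0.480 CPM (tm474). *dyf-2* had a log2 fold change of -1.09 ± 0.44 in *nlg-1* (ok259), with an adjusted p of 0.340 in edgeR. In this strain 5 of 36 members lay above all N2 libraries (*bbs-5*, *bbs-8*, *ifta-1*, *mks-6* and *osm-6*), beside 15.8% of all genes, and 3 lay below (*che-10*, *dyf-2* and *osm-9*), beside 7.49%. Without replicate 1, edgeR called 11 of 40 members, beside 42.3% of all genes. Of these, 7 were higher (*bbs-2*, *bbs-8*, *che-12*, *che-13*, *che-14*, *dyf-13* and *mks-3*) and 4 lower (*dyf-3*, *dyf-17*, *osm-9* and *osm-11*).

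*nlg-1* (tm474) had the fewest members at an unadjusted p below 0.05 in edgeR, and also the smallest share of all genes. After *dyf-3*, the next smallest p was that of *bbs-2*, on chromosome IV at 7934033 to 7937749, which stood at 0.274, 0.548 and 0.285 CPM in N2 and at 0.320, 1.88 and 0.760 CPM in the mutant. The groups overlapped, at a log2 fold change of 1.49 ± 0.80 and an adjusted p of 0.628 in edgeR. *bbs-2* had 6, 12 and 8 reads in N2, so it passed the filter only with mutant libraries, which favoured a positive value. In the other mutants *bbs-2* stood at 0.0729, 1.25 and 1.42 CPM (ok1649), at 0.939, 0.235 and 0.431 CPM (tm1961) and at 0.436, 1.19 and 1.45 CPM (ok259), with replicate 1 lowest in the strains with ok1649 and ok259. Above all N2 libraries were *bbs-8* and *dyf-5*, 2 of 34 members, beside 8.20% of all genes. Below were *bbs-5* and *dyf-3*, also 2, beside 6.85%. Leaving out any 1 library of this comparison gave no called member. Without replicate 1 of *nlg-1* (tm474), edgeR called 0 of all 16578 genes tested, so that count says little about the members. The share of all genes with another library left out was not taken.

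**Figure D3:**
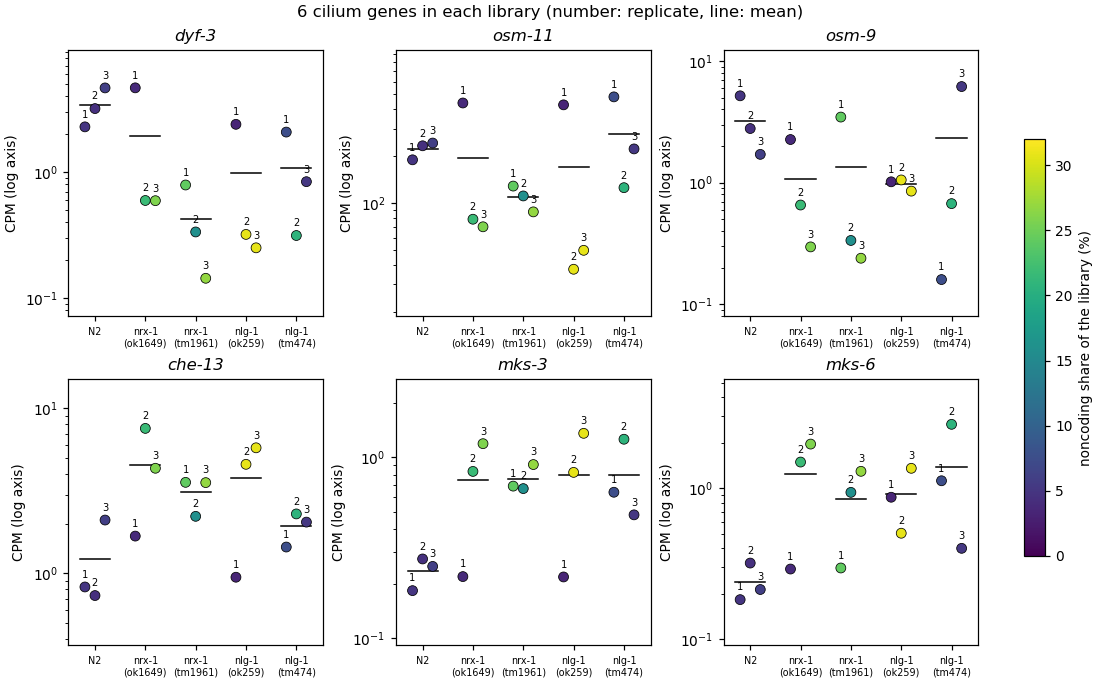
CPM of 6 members in each of the 15 libraries on log axes, with the replicate number beside each point, the strain mean as a line and the noncoding share of the library as colour. Replicate 1 of the strains with ok1649 and ok259, at 3.78% and 3.26% noncoding counts, lies with N2 or beyond it for *dyf-3*, *osm-11*, *che-13* and *mks-3*.

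The members with the most and the fewest reads followed no common course. *osm-7*, which encodes a secreted protein of the osmotic response, stood at 62.4, 52.5 and 18.2 CPM in N2 and had log2 fold changes of -0.78, -1.09, -1.35 and -0.43 in the 4 mutants, with adjusted p in edgeR of 0.277 or more. Its mutant libraries stood at 34.6, 34.3 and 12.4 CPM (ok1649), at 39.1, 13.6 and 8.52 CPM (tm1961), at 9.87, 21 and 29.1 CPM (ok259) and at 14.2, 20.9 and 66.4 CPM (tm474), all overlapping N2 in part. *che-14* stood at 18.4, 9.45 and 4.48 CPM in N2, at 5.10, 52.9 and 23.1 CPM with ok1649, at 31.5, 9.98 and 5.12 CPM with tm1961, at 2.98, 44.7 and 41.5 CPM with ok259 and at 2.88, 11.5 and 30.7 CPM with tm474. Its log2 fold changes were 1.20 ± 0.80, 0.56 ± 0.76, 1.29 ± 0.95 and 0.46 ± 0.84. Replicates of 1 strain thus differed more than 10-fold for *che-14*, and all strains overlapped N2. At the low end, *nphp-1*, the nephrocystin homologue, stood at 0.320, 0.137 and 0.249 CPM in N2, at 0, 0.0596 and 0.178 CPM with ok1649, at 0.247, 0.402 and 0.0479 CPM with tm1961, at 0.145, 0.229 and 0 CPM with ok259 and at 0, 0.628 and 0.400 CPM with tm474. There was no read in replicate 1 with ok1649, replicate 3 with ok259 and replicate 1 with tm474. A count of 0 allows up to 3 reads. *dyf-11* stood at 0.366, 0.502 and 0.178 CPM in N2, at 0.146, 0.715 and 0.356 CPM with ok1649, at 0.0494, 0.101 and 0.0958 CPM with tm1961, at 0.145, 0.0915 and 0.150 CPM with ok259 and at 0.160, 0.314 and 0.440 CPM with tm474. All libraries of *dyf-11* with tm1961 and ok259 were below those of N2, at 1 to 3 reads. Neither gene passed edgeR's main filter in any comparison, and neither was called in an alternative. A difference between strains was not judged at this depth.

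A test for any difference among the 5 strains over 15 libraries in edgeR called 0 of 40 members, beside 0.0402% of all genes. No member had an unadjusted p below 0.05, beside 4.71% of all genes, and DESeq2 called 0 of 42, beside 0.628%. The members with the smallest p were *dyf-3*, *mks-6* and *che-13*, each with an adjusted p of 0.924 in edgeR. With replicate 1 of *nrx-1* (ok1649) and of both *nlg-1* strains left out together, edgeR called 2 members, *osm-11* (adjusted p = 0.0295) and *dyf-3* (adjusted p = 0.0302), beside 9.52% of all genes. That fit was chosen after the libraries were seen to stand apart.

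The 2 alleles of each gene were also compared with each other. Of 37 members tested between the neurexin alleles (tm1961 against ok1649), edgeR called 0, beside 0.0247% of all genes, and DESeq2 called 0 of 42, beside 0.0696%. No member had an unadjusted p below 0.05, beside 0.711% of all genes. The same counts between the neuroligin alleles (tm474 against ok259) were 0 of 38 in edgeR beside 0%, 0 of 42 in DESeq2 beside 0.0245%, and 0 at an unadjusted p below 0.05 beside 0.693%. The median log2 fold change of the members was -0.11 and -0.02. Standard errors were wider here, with a median of 0.74 and 0.83 on the log2 scale, so differences of severalfold between alleles were within the error.

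Many members also had the same order of replicates within 3 of the strains. Replicate 1 was the lowest of the 3 replicates for 30 of 42 members with ok1649, beside 49.6% of all genes, for 30 with ok259, beside 47.4%, and for 24 with tm474, beside 34.8%. *nrx-1* (tm1961) had the opposite order, with replicate 1 the highest for 28 members, beside 42% of all genes, and the lowest for 3, beside 41.4%. In N2 replicate 1 was the highest for 18 and the lowest for 11, beside 33.1% and 37.4%. It was the lowest in all 3 strains for 20 members, beside 25.3% of all genes, and the highest in all 3 for 4 members, beside 24.7%. The 20 included IFT-B genes (*che-2*, *che-13*, *dyf-1*, *dyf-13*, *ift-74*, *osm-5* and *osm-6*), *che-11*, *che-3*, the BBSome genes *bbs-2* and *bbs-8*, *dyf-5*, *mks-1*, *nphp-4* and 6 genes named for a sensory defect (*che-7*, *che-12*, *che-14*, *dyf-7*, *osm-8* and *osm-10*). The 4 were *dyf-3*, *dyf-17*, *ifta-1* and *osm-11*. Scaled by library totals the counts were 27 lowest, beside 41.5%, and 3 highest, beside 11.8%, with *ifta-1* no longer among the latter. These are descriptions of libraries that the data themselves set apart, and no test was made of them.

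Summed yolk and oocyte genes were highest in the same 3 libraries, while lists of other tissues overlapped N2 or the other mutant libraries. The summed level of 6 yolk protein genes was 120208 to 164271 CPM in replicate 1 of these 3 strains, 8836 to 19972 CPM in N2 and 356 to 8268 CPM in the other 9 mutant libraries. That of 10 oocyte genes was 9154 to 12135 CPM, 1506 to 2666 CPM and 118 to 1243 CPM in the same order, and that of 17 sperm genes 770 to 1361, 1197 to 2043 and 640 to 1607 CPM. All genes of these 3 lists had reads in at least 1 library. Epidermal genes (11 listed) summed to 3068 to 4368 CPM in the 3 libraries, to 1899 to 3136 CPM in N2 and to 626 to 4560 CPM in the rest. Body wall muscle genes (10) summed to 12610 to 24031, 6662 to 16860 and 1851 to 25717 CPM in the same order. Intestinal genes (10 listed, 9 of them in the counts) summed to 10096 to 11262, 6166 to 12149 and 947 to 9397 CPM. The 3 libraries thus had several times the yolk and oocyte RNA of any other library. The part of this in the values of *osm-11*, *dyf-3* and the other members was not tested.

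**Figure D4:**
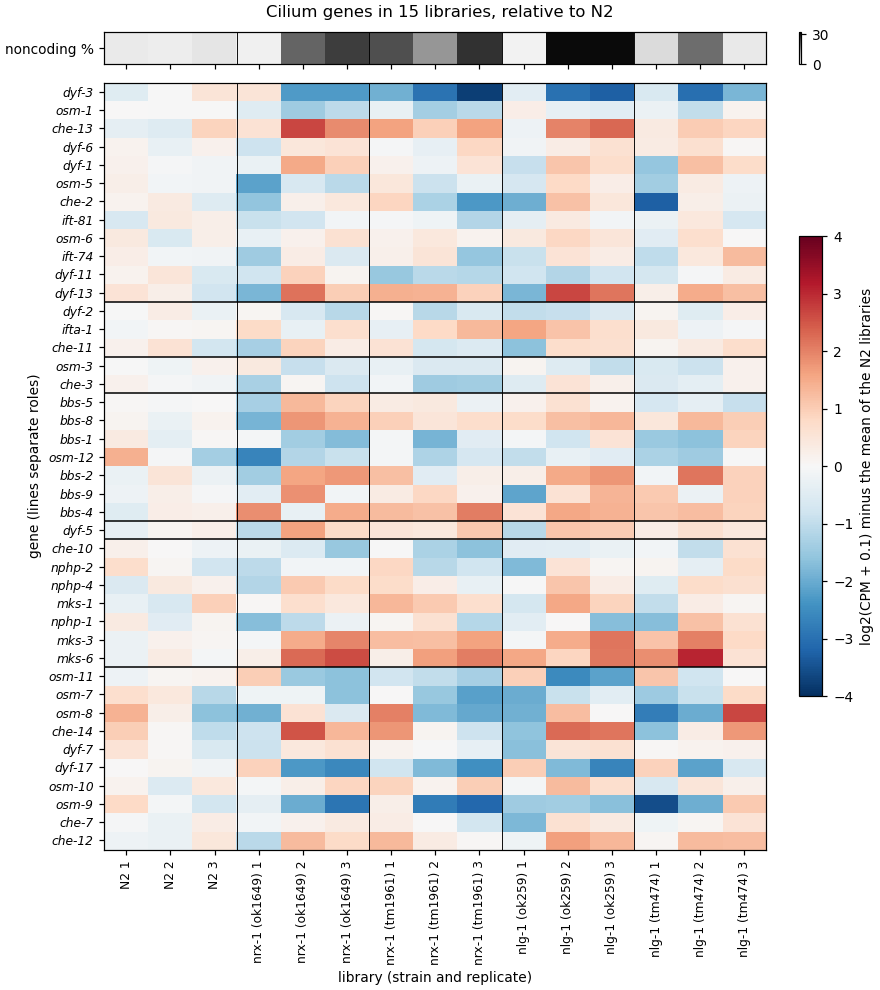
Each member (rows, ordered by role) in each library (columns), as log2(CPM + 0.1) minus the mean of the N2 libraries, with the noncoding share in per cent above. Replicate 1 of *nrx-1* (ok1649) and of both *nlg-1* strains differs from its own replicates, with *dyf-3*, *dyf-17* and *osm-11* high and 20 members low.

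Ciliary genes outside the name rule were read in the same way, from a list of 30, of which 29 were in the counts. The list held the anterograde kinesin subunits, small GTPases, transition zone genes, ciliary tubulins and *daf-19*, which encodes the RFX factor that switches on cilium genes. Between 22 and 24 of these genes were tested, and edgeR called 0 in each strain. Of all genes it called 0.0251% in *nrx-1* (ok1649) and 0% in each other mutant. Their median log2 fold change was 0.21 and 0.42 in the neurexin mutants and 0.26 and 0.13 in the neuroligin mutants, and 3, 4, 2 and 0 of them had an unadjusted p below 0.05 in edgeR, beside 18.1%, 34.2%, 14.2% and 8.41% of all genes. With the replicate block in *nrx-1* (tm1961), which called 31.5% of all genes, edgeR called 3 of 23, with *kap-1* (1.25, adjusted p = 0.0265), the accessory subunit of the kinesin, and *ttll-11* (1.59, adjusted p = 0.0299), a tubulin glutamylase, higher and *daf-19* (-1.06, adjusted p = 0.0421) lower. *daf-19* stood at 13.5, 9.40 and 7.72 CPM in N2 and at 10.6, 3.35 and 2.78 CPM in *nrx-1* (tm1961). It also followed the replicates elsewhere, at 18.2, 3.63 and 2.2 CPM with ok1649, 17.9, 2.56 and 3.46 CPM with ok259 and 10.9, 3.00 and 13.8 CPM with tm474.

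The cells that carry or surround the cilia were checked through 4 further lists. Sensory transduction genes of ciliated neurons (24 listed) had median log2 fold changes of -0.29, -0.15, -0.10 and -0.01 against N2, over 15, 18, 19 and 17 genes tested. The 18 genes shared by all neurons had medians of -0.34, -0.56, -0.29 and -0.16, and amphid glia (12 listed) of -0.29, -0.79, -0.21 and 0.15. Of the 10 genes of male ciliated neurons, 2 or 3 passed the filter, with medians of -0.07, -0.38, -0.17 and -0.43. In edgeR 0 genes of these lists were called in any strain, beside 0.0251% of all genes in *nrx-1* (ok1649) and 0% in each other mutant. The replicate block in *nrx-1* (tm1961) called the sensory genes *arr-1* and *tax-6*, the glial genes *glt-1* and *vap-1* and the neuronal genes *egl-3*, *ehs-1*, *unc-11* and *unc-31* lower and *snt-1* higher, with adjusted p from 0.0106 to 0.0450. The same fit called 31.5% of all genes. It also called lower 6 of 11 epidermal, 6 of 10 body wall muscle, 4 of 9 intestinal, 3 of 6 yolk, 5 of 17 sperm and 9 of 10 oocyte genes tested. The summed level of the 18 neuronal genes was 589 to 746 CPM in N2, 640 to 798 CPM in the 3 libraries that stand apart and 319 to 776 CPM in the other mutant libraries.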

How the data were processed

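The authors trimmed reads of rRNA-depleted, strand-specific libraries, aligned them with STAR to the Ensembl *C. elegans* genome (WBcel235 in the submitters' processing notes, with bcl2fastq 2.20) and counted unique reads on exons with featureCounts. The deposited values are these raw counts, without normalization. The strand setting is not given in the sources used here, so genes that overlap on opposite strands are uncertain. Positions, exon lengths and biotypes came from Ensembl 115 (WBcel235), which lacks 175 identifiers of the table.

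Groups came from the labels. edgeR 4.0.16 in R 4.3.3 (TMM, filterByExpr, quasi-likelihood test, 6 libraries per comparison) was fitted over all genes, with a Benjamini-Hochberg adjusted p below 0.05 and a log2 fold change beyond 1 in size as the call and an F test over 15 libraries for the 5 strains. DESeq2 1.42.0 was the alternative test. *mks-3*, *mks-6*, *bbs-4* and *dyf-13* had fewer than 10 reads in every N2 library. Against N2, edgeR's filter kept them only where mutant libraries were higher. *bbs-2* (6, 12 and 8 reads) and *mks-1* (7, 5 and 25 reads) were below 10 in most N2 libraries and also needed mutant libraries to pass. Calls of any of these genes as higher, also with a library left out, are therefore no independent support for a rise. Fold changes are edgeR's, shrunk for low counts by its prior count. Members, their roles and the gene lists were chosen with earlier results of these data known. All members are named. Values in every library are given for members called against N2, the 2 smallest p in each comparison with N2, the 3 smallest over 5 strains, the 3 highest and 2 lowest mean CPM, and *nrx-1* and *nlg-1*. *bbs-4*, *bbs-5*, *dyf-13*, *dyf-17* and *daf-19* were added with their values known.

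Libraries of 1 strain differed by more than sampling noise in all 15 pairs (chi-square per degree of freedom at least 28.2). The labels share replicate numbers. Deviations of same-numbered libraries correlated at 0.673, 0.182 and 0.633 in *nrx-1* (tm1961) against N2 and at 0.777, 0.577 and 0.287 in *nlg-1* (tm474) against *nlg-1* (ok259). The pairing rests on these correlations alone. Fits were tested on simulated counts. Alternatives were other scalings and filters, protein-coding genes, genes over 5% of a library left out or as a covariate, the block, 15 libraries, the adjusted p alone and each library left out. Sequences were not used here.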

Additional observations from a re-analysis of the deposited data

Results flagged for a closer look

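*bbs-5*, a BBSome subunit, lay on opposite sides of N2 in the 2 neuroligin strains. It stood at 1.65, 1.55 and 1.60 CPM in N2, at 1.81, 2.52 and 1.75 CPM in *nlg-1* (ok259) (mean 2.03) and at 0.960, 1.21 and 0.800 CPM in *nlg-1* (tm474) (mean 0.990), so that every library of one allele was above N2 and every library of the other below. Compared directly, the alleles differed by a log2 fold change of -1.01 ± 0.67 for tm474 against ok259, with an adjusted p of 1.00 in edgeR over all genes, and the difference did not pass the test. The N2 libraries lay close together for this gene (SD 0.0477, n = 3), closer than counting error alone gives at 36, 34 and 45 reads. The spread in N2 is thus likely understated, which makes non-overlap easier to reach. Over all libraries the gene had 6 to 69 reads.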

How the results depend on the processing

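The count of members called changed in 4 of 7 comparisons. In *nrx-1* (tm1961) against N2 it was 0 in the main setting, 3 with DESeq2 and 7 with the replicate block, and with each library left out it ran from 0 to 11. Leaving out each library gave 0 to 14 in *nrx-1* (ok1649) and 0 to 11 in *nlg-1* (ok259), the higher value each time without replicate 1 of the mutant strain. The test over 5 strains gave 2 with replicate 1 of 3 strains left out together, a setting chosen after seeing the data. All other settings gave 0. The members' median moved once beyond the spread of libraries, to -0.43 in *nrx-1* (tm1961) with the abundant share as a covariate. The share in that strain does not overlap that in N2, so strain and covariate can hardly be told apart there. That covariate also turned the sign of *bbs-2* (-0.28 with ok1649, -1.08 with tm1961, -0.28 with ok259), *che-14* (-0.35, -1.18 and -0.96), *osm-11* (0.71, 0.89 and 0.63), *dyf-3* in *nrx-1* (ok1649) (0.0574) and *osm-5* in *nlg-1* (ok259) (-0.85). It brought *che-13* to 0.039 with tm1961 and 0.0046 with ok259, and *mks-3* to 0.23 with tm1961, with no turn of sign. Library totals turned *osm-11* in *nlg-1* (tm474) (-0.0899) and *osm-5* in *nrx-1* (tm1961) (0.0079), and the block turned *osm-5* in *nlg-1* (ok259) (-0.085). The sign also turned with 1 library left out, with ranges of -0.14 to 0.92 for *bbs-2* and -0.58 to 0.18 for *osm-5* in *nrx-1* (tm1961), -0.05 to 1.76, -0.49 to 1.17 and -0.57 to 1.09 for *che-14* with ok1649, tm1961 and tm474, -0.37 to 0.45 for *osm-5* in *nlg-1* (ok259), and -0.78 to 0.10 for *osm-5*, -0.33 to 0.43 for *osm-11* and -2.77 to 0.10 for *osm-9* in *nlg-1* (tm474). The cause was not tested. The block changed no other call. Numbers did not pair the libraries of the other comparisons, where same-numbered correlations ran from -0.672 to 0.414 and the block called 0 members. Low depth of most members limits all of these values, and counting error alone is large below 30 reads.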
